A study of Mus musculus with 2 samples.

Results

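A set of 10 mouse genes that set or remove DNA methylation, or catalyse Polycomb histone methylation, were followed in tumour-bearing lung: Dnmt1, Dnmt3a, Dnmt3b, Uhrf1, Tet1, Tet2, Tet3, Hells, Ezh1 and Ezh2. They were taken by symbol, as all 27 probe sets (groups of short probes that read 1 transcript) annotated to these genes, out of 45037 probe sets and 18193 genes. The lungs came from C57BL/6 mice that were 6 to 8 weeks old when Lewis lung carcinoma (LLC) cells, a mouse lung carcinoma line, were injected into the tail vein, 500000 cells per mouse in 200 µL. In 1 group the cells carried the vector, and in the other they overexpressed TDAG8, the proton-sensing receptor encoded by Gpr65. No lung without tumour cells was analysed here, and the labels do not say whether the cells were 1 clone. Lungs were taken on day 19, RNA of 10 whole lungs made up the pool of a group, and 1 Affymetrix array was run per pool. A single array per group allows neither a test nor an error between mice, and each difference below describes these 2 pools only.

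DNA methylation in mammals is copied at each cell division. DNMT1 methylates the new strand behind the replication fork, UHRF1 recognises the half-methylated site and brings DNMT1 to it, and HELLS is a chromatin remodeller that opens compact DNA to the methylation machinery. DNMT3A and DNMT3B place methylation at new sites, and the TET enzymes oxidise methylcytosine as a step towards its removal. EZH1 and EZH2 are alternative catalytic subunits of Polycomb repressive complex 2 (PRC2), which methylates histone H3 at lysine 27, with EZH2 known from dividing cells and EZH1 from resting ones. Dnmt1, Uhrf1, Hells and Ezh2 were therefore set against the other 6 genes as the replication-linked members.

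By its brightest probe set, each replication-linked member was higher in the lungs with TDAG8-overexpressing cells, by 2.04-fold to 4.56-fold. Hells gave the highest value, while its second probe set was 1.35-fold higher. None of the other members that could be measured was higher. Intensities are given as the authors deposited them. A ratio is the log2 of the TDAG8 over the vector array, centred on the median of all genes above an intensity floor on both arrays. The floor was the median probe set of each array, 26.3 in the vector and 24.3 in the TDAG8 array. All 4 replication-linked genes passed 2-fold, with a median log2 ratio of 1.71. Under other processing settings 3 or 4 of them did. The other set had 4 of its 6 genes above the floor, with a median of -0.24 and none past 2-fold in either direction. Among all 11951 genes above the floor on at least 1 array the median was 0.00, 5.41% were higher by 2-fold or more and 1.19% were lower by that much.

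Promoter sequences are shown for the replication-linked members because these 4 genes were all higher and each has, at 1 of its annotated starts, a word of the E2F class. E2F factors switch on genes of S phase, and 4 words of 8 bases that they are known to bind (TTTCCCGC, TTTCGCGC, TTTGCCGC and TTTGGCGC) were searched on both strands. Each window of 300 bases ran from 250 before to 50 after an annotated transcript start of assembly GRCm38.p6. At least 1 of these words lay at a start of 4 of 4 replication-linked genes and of 0 of 6 other members, against 2.61% of 27025 genes with a promoter in the table. All 10 members were searched, but the grouping was made with earlier results known, so these counts are a description only. Dnmt1 and Uhrf1 shared TTTCGCGC, Dnmt1 and Ezh2 shared TTTGGCGC, and Hells had TTTCCCGC. All 4 words contain a CpG. The richest promoter of a gene held a median of 33 CpGs in the replication-linked members, 26.5 in the others and 8 over all genes. Among the 9151 genes whose richest promoter held at least 17, the lowest count of the 10 members, 5.47% had an E2F word. The richest promoters of the replication-linked genes held 31 to 34, and no share was computed at that richness. The stretches run from 230 bases before the start to 20 after it, 5′ to 3′ along the gene, with the E2F word in capitals.
Dnmt1, start 3 of 3, minus strand, chr9:20952604-20952853: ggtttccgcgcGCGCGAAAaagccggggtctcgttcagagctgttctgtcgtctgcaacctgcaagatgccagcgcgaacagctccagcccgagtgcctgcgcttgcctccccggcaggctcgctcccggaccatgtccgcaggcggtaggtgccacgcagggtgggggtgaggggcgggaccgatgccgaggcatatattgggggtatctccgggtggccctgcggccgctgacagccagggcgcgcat
Uhrf1, start 2 of 2, plus strand, chr17:56304083-56304332: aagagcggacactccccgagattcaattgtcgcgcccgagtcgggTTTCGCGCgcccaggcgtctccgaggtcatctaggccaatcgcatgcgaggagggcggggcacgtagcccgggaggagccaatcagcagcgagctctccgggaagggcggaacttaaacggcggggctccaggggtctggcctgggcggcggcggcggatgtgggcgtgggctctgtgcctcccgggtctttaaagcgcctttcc
Hells, start 1 of 1, plus strand, chr19:38930760-38931009: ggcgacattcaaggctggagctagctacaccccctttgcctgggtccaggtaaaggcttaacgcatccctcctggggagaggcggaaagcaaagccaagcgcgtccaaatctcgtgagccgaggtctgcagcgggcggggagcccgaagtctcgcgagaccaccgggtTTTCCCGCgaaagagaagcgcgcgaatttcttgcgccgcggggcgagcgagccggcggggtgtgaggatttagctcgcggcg
Ezh2, start 1 of 1, minus strand, chr6:47595011-47595260: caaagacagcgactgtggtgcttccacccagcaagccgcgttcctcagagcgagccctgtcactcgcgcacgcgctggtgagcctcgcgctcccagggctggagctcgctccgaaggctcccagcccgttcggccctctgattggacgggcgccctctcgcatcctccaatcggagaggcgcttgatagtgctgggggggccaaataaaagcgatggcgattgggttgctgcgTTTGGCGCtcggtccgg

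The word began 219 bases before the start in Dnmt1, where it is read on the opposite strand, and 185 before the start in Uhrf1. It began 62 bases before the start in Hells and at base 4 of the transcript in Ezh2. The same start of Dnmt1 had another word, TTTGGCGC, from base 34 of the transcript, beyond the stretch shown. The CCAAT box, the site of the factor NF-Y, lay at a start of 3 of the 4 replication-linked genes, all but Hells, and of 1 of the 6 others, Tet3, against 41.1% of all genes. The cell cycle homology region of late cell cycle genes, TTTGAA, lay at a start of 1 replication-linked gene, Dnmt1, and 1 other, Dnmt3b, against 20.2% of all genes. None of the E2F words in the members shared a base with a CCAAT box or TTTGAA. In the list of replication genes 11 of the 27 with a promoter in the table, or 40.7%, held an E2F word. In the list of mitotic genes, whose median ratio was higher, it was 1 of 18, or 5.56%, with CCAAT at 83.3% and TTTGAA at 77.8% of the genes. A match is a match of letters only, and the arrays do not tell which start was used. Whether E2F factors play a part in the ratios was not tested.

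**Figure D1:**
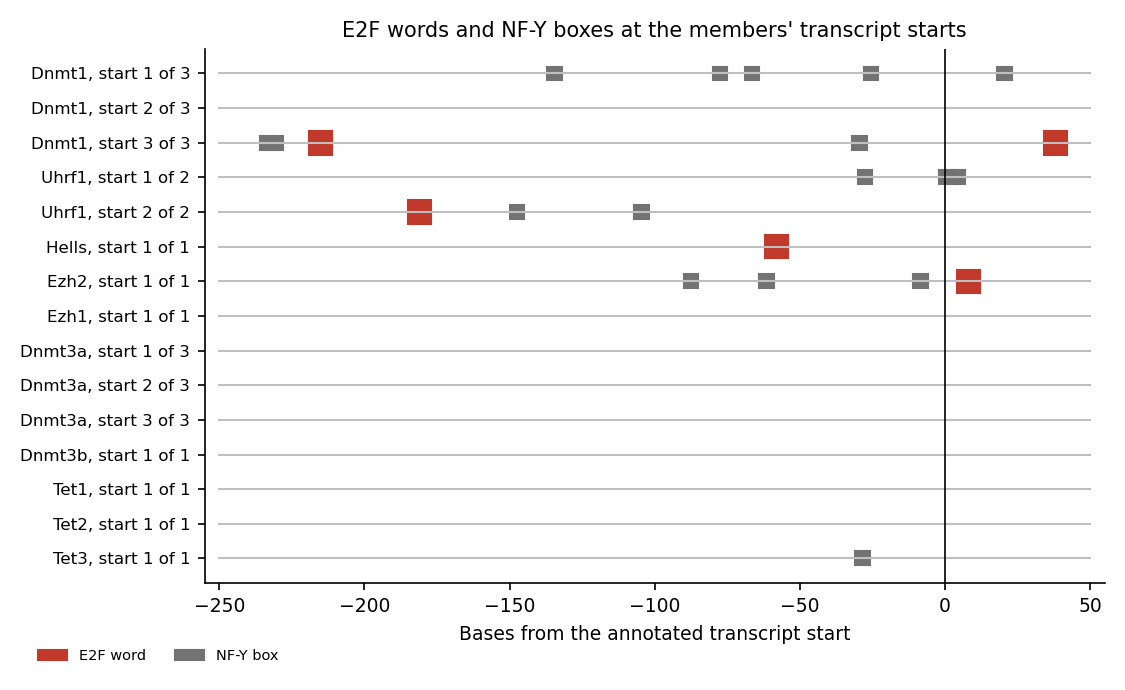
Positions of E2F words (red) and CCAAT boxes, labelled NF-Y boxes (grey), on either strand, at each annotated start of the 10 genes; the x axis is the distance in bases from the transcript start. Red boxes appear at 1 start each of Dnmt1, Uhrf1, Hells and Ezh2 and at no start of the other 6 genes.

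Dnmt1, the maintenance methyltransferase, was read by 3 probe sets, all above the floor on both arrays. Its intensities were 204 in the vector and 399 in the TDAG8 array at the brightest, 147 and 352 at the next, and 84.2 and 170 at the dimmest. All 3 were higher in the TDAG8 array, with log2 ratios of 1.03, 1.32 and 1.07. The brightest, which stood for the gene, lay just past 2-fold, and 94.9% of measured genes had a lower ratio. It stayed short of 2-fold, at 0.97, without centring, at 0.95 with an offset in place of the floor, and narrowly after quantile normalization. Of these probe sets 2 carry the suffix that Affymetrix gives to probes which can also bind other transcripts.

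Uhrf1, which brings DNMT1 to half-methylated sites, went from 65.3 to 270.5, a log2 ratio of 2.11 or 4.31-fold. Its other probe set went from 25.4, below the floor, to 100.3, and was at least 3.97-fold higher. Both probe sets read higher in the TDAG8 array, the dimmer one with a lower bound only. Uhrf2, a relative of Uhrf1 from the list of partners, went from 108 to 121, a ratio of 0.23. The difference between the ratios of Uhrf1 and Uhrf2 was 1.88 on the log2 scale, and 1.57 with an offset.

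Hells, the remodeller, had the highest ratio of the 10 genes, but its probe sets disagreed. The brightest went from 45.2 to 197.8, a log2 ratio of 2.19 or 4.56-fold, above 99.5% of measured genes. A second went from 39.3 to 50.8, a ratio of 0.43, and the last, at 7.0 and 10.4, lay under both floors. With the mean over the 2 probe sets above the floor, an alternative chosen after seeing the data, the ratio of Hells was 1.31. With the mean over all 3, where the dim one counts at the floor on both arrays, it was 0.87 and under 2-fold. The SD between the log2 ratios of the first and second was 1.24, against a pooled SD of 0.27 between probe sets of the same gene over 4775 genes. Cdca7, whose product works with HELLS in remodelling nucleosomes, went from 47.6 to 188.9, a log2 ratio of 2.05.

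Ezh2 and Ezh1, the alternative PRC2 enzymes, differed in opposite directions. Ezh2 had 1 probe set, which went from 103.5 to 246.6, a log2 ratio of 1.31 or 2.48-fold. Ezh1 went from 272.5 to 191.7, a ratio of -0.45, and a second probe set from 74.2 to 58.6, a ratio of -0.28. The remaining 2 probe sets of Ezh1 read between 2.0 and 6.2, under both floors. The ratio of Ezh2 exceeded that of Ezh1 by 1.76 on the log2 scale, and by 1.52 to 1.77 under every alternative in which Ezh1 was measured. Leaving out the centring, or moving a floor that both genes exceed, cannot change such a difference. Ezh1 itself stayed under 2-fold, and 18.1% of measured genes had a lower ratio.

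**Figure D2:**
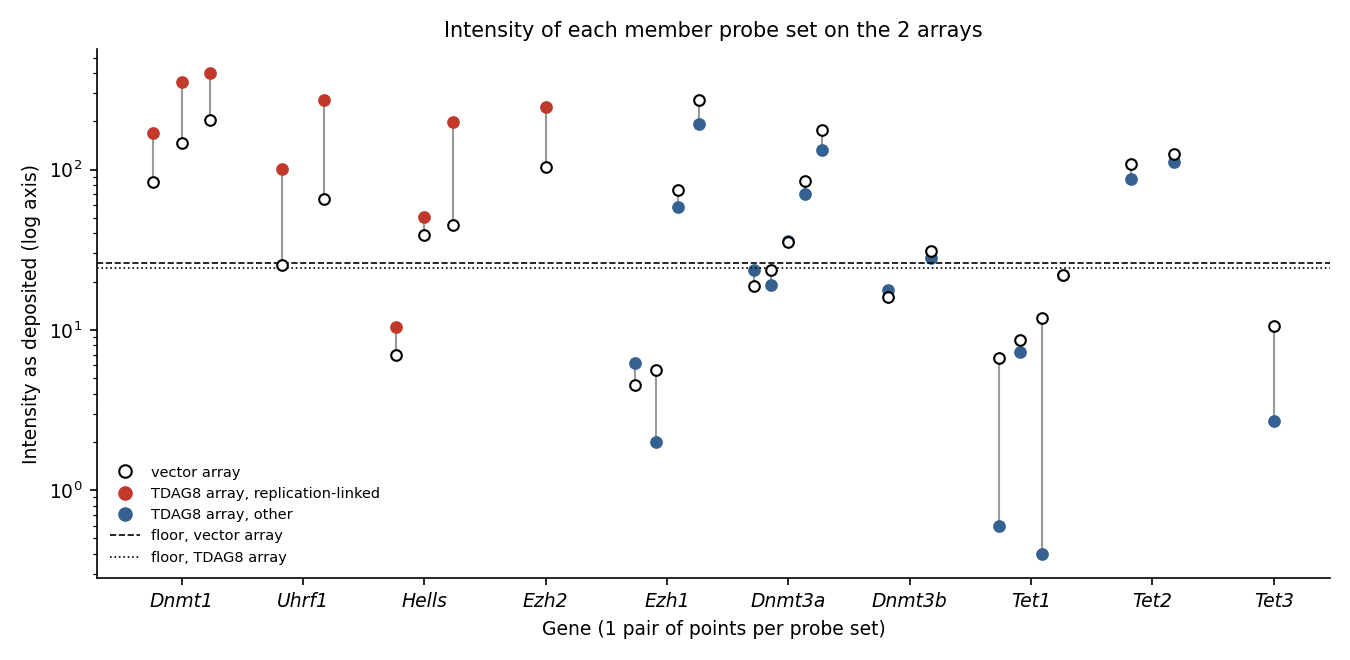
Intensity as deposited (log axis) of each probe set of the 10 genes, open for the vector array and filled for the TDAG8 array (red for replication-linked, blue for other members); the dashed and dotted lines are the floors of 26.3 and 24.3. The 8 probe sets of Dnmt1, Uhrf1, Hells and Ezh2 above the floor on at least 1 array read higher in the TDAG8 array. Of the 8 such probe sets of the other members 1 did. The dimmest probe set of Hells and every probe set of Tet1 and Tet3 lie below both floors.

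The enzymes that place methylation at new sites were not among the higher genes. Dnmt3a had 5 probe sets. The brightest went from 176.2 to 132.0, a log2 ratio of -0.36, and the next from 85.3 to 70.7, a ratio of -0.21. The middle one read 35.1 and 36.0, a ratio of 0.10 after centring, and the other 2 lay below the floor. The values of Dnmt3a thus lay on both sides of 0, all of them under 2-fold. Dnmt3b was close to the floor throughout, at 31.1 and 28.1 for 1 probe set and 16.0 and 17.6 for the other. The ratio of Dnmt3b was -0.09, and it turned to 0.02 after quantile normalization and 0.06 after loess centring, so it has no settled direction. The ratio of Dnmt1 exceeded that of Dnmt3a by 1.38 on the log2 scale, and by 1.25 to 1.39 under every alternative in which Dnmt1 was measured. Here too the alternatives without centring or with another floor could not change the difference.

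Among the TET enzymes only Tet2 was above the floor. Its probe sets went from 125.5 to 111.1 and from 107.9 to 87.7, with log2 ratios of -0.12 and -0.24. Both were slightly lower in the TDAG8 array, by less than the pooled SD of 0.27 between probe sets of a gene. All 4 probe sets of Tet1 and the only probe set of Tet3 lay under both floors, so these genes have no ratio here. The brightest Tet1 probe set read 22.1 on both arrays, and Tet3 read 10.5 and 2.7. With the floor at the 30th percentile Tet1 had a ratio of 0.08 and Tet3 was at least 1.28-fold lower.

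Over probe sets, 4.37% of the 21232 above the floor on both arrays were at least 2-fold higher and 1.06% lower by that much. Of 9 replication-linked probe sets 7 were above the floor on both arrays, with log2 ratios from 0.43 to 2.19, and 6 of them passed 2-fold. Of the remaining 2, 1 of Uhrf1 had only the bound given above and 1 of Hells had no ratio. Of 18 probe sets of the other members 8 were above the floor on both arrays, with ratios from -0.45 to 0.10, and 0 passed 2-fold in either direction. The ranges of these 7 and 8 probe sets did not overlap. Probe sets of 1 gene share their transcript and are not replicates, and the split was made by function with earlier results of these data known.

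**Figure D3:**
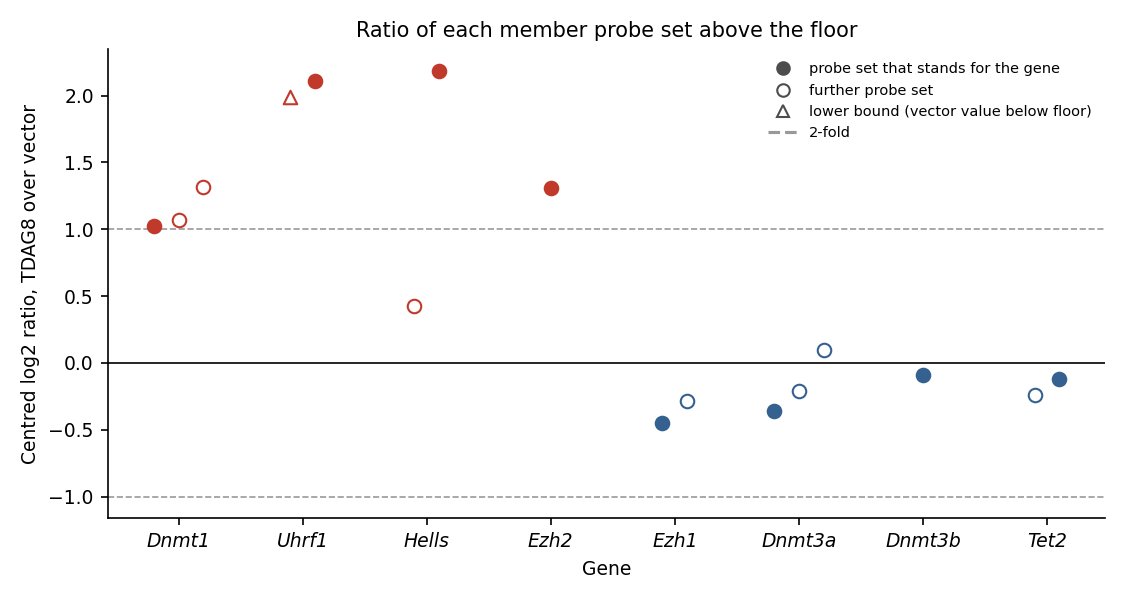
Centred log2 ratio of TDAG8 over vector for each member probe set above the floor on at least 1 array, filled where it stands for its gene and as a triangle where it is a lower bound; dashed lines mark 2-fold. The red points of the replication-linked genes lie between 0.43 and 2.19 and the blue points of the others between -0.45 and 0.10.

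By the probe set that stood for each gene, the replication-linked members lay within the range of listed genes for DNA replication and nucleotide synthesis. In the list of 34 replication genes 31 were measured. All 31 had ratios above 0, 27 passed 2-fold, and the median was 1.43. The count past 2-fold was 16 with an offset in place of the floor and 15 where a gene took the average of its probe sets. Rrm2, a subunit of ribonucleotide reductase, was at 2.22, Tk1, the thymidine kinase of S phase, at 2.02, Gins1, of the replicative helicase, at 1.84 and Pcna, the replication clamp, at 0.91. Uhrf1 exceeded 30 of the 31 genes in this list, all but Rrm2. So did Hells by its brightest probe set, while its other measured one, at 0.43, lay below all 31. Ezh2 exceeded 14 of them and Dnmt1 5. Ezh1, Dnmt3a, Dnmt3b and Tet2 lay below all 31. Mitotic genes were higher still, with a median of 2.27 over 22 genes, 21 of them past 2-fold. Among these were Bub1 of the spindle checkpoint at 2.71, the mitotic kinesin Kif2c at 2.59, the mitotic kinase Cdk1 at 2.54 and the anaphase activator Cdc20 at 2.43. The part of this difference in cell cycle genes that the members share was not tested.

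The wider machinery around the members showed few differences of 2-fold. Over 8 lists of DNA methylation partners, readers, demethylation, Polycomb, other histone methylation and methyl donor genes, 75 genes were measured. Of these, 5 were at least 2-fold higher, or 6.67%, close to the background of 5.41%, and 0 were 2-fold lower, with a median of 0.20. The 5 were Cdca7, Gadd45a, Ahcy, Apex1 and Pcgf6.

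Among 11 partners of the DNA methylation enzymes 9 were above 0, with a median of 0.28. Beside Cdca7, Smchd1, which keeps the inactive X chromosome silent, was at 0.58. Dnmt3l, the cofactor of the DNMT3 enzymes, was below the floor in the vector array and at least 1.44-fold higher. Trim28, the corepressor of zinc finger proteins and the brightest of the list, was at 0.41. The 7 readers of methylated DNA went both ways, with a median of 0.13. Mbd4, a glycosylase that repairs mismatches at methylated sites, was at 0.83, while Zbtb4 went from 801 to 505, a ratio of -0.61, and Mbd1 was at -0.58. In the list of genes that act downstream of or beside the TET enzymes, 5 of 11 were above 0 and the median was 0.00. Gadd45a, a stress-induced growth arrest gene, went from 100.8 to 249.4, a ratio of 1.37, and Apex1, the endonuclease of base excision repair, from 164 to 348, a ratio of 1.14. Gadd45b was at -0.52 and Idh1, which makes the TET cofactor 2-oxoglutarate, at 0.11.

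The other subunits of PRC2 differed less than Ezh2. Of 10 measured, 8 were above 0, none passed 2-fold and the median was 0.29. The histone-binding subunits Rbbp7 and Rbbp4, which also serve other chromatin complexes, were at 0.68 and 0.67, and Phf1, an accessory subunit, was at -0.63. The core subunits Suz12 and Eed, named outside the rule for their role, went from 213.5 to 297.7 and from 343.5 to 425.2, ratios of 0.54 and 0.37. Polycomb repressive complex 1 ubiquitinates histone H2A, and some of its forms bind the mark made by PRC2. Of 17 of its subunits 11 were above 0, with a median of 0.37. Pcgf6 was at 1.06 and Pcgf1 at 0.78, both of variant complexes, Cbx7, a reader of the PRC2 mark, was at -0.69 and Phc2, the brightest, at 0.47. Pcgf6 no longer passed 2-fold without centring, with an offset or with the mean over its probe sets above the floor. The 4 genes that work against PRC2 were all below 0 and under 2-fold. The acetyltransferase Ep300 went from 599 to 372, a ratio of -0.63, and the demethylases Kdm6a and Kdm6b were at -0.50 and -0.15.

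Of 8 genes that write or read methylation at lysine 9 of histone H3, 7 were above 0, with a median of 0.24. Cbx1 was at 0.41 and Cbx5, the brightest, at 0.20, both HP1 proteins. The methyltransferase Suv39h2 reached the floor in the TDAG8 array alone and was at least 1.32-fold higher. Cbx3, another HP1 gene, reached it in the vector array alone and was at least 1.41-fold lower. In the list of methyl donor cycle genes and their relatives 4 of 7 were above 0, and Mat2a had no probe set assigned to it alone. Ahcy, which removes the S-adenosylhomocysteine left after each methylation, went from 232.8 to 514.2, a ratio of 1.20. Mat1a, close to the floor at 37.2 and 26.1, was at -0.45, Ahcyl2 at -0.44 and Ahcyl1, the brightest, at 0.40.

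**Figure D4:**
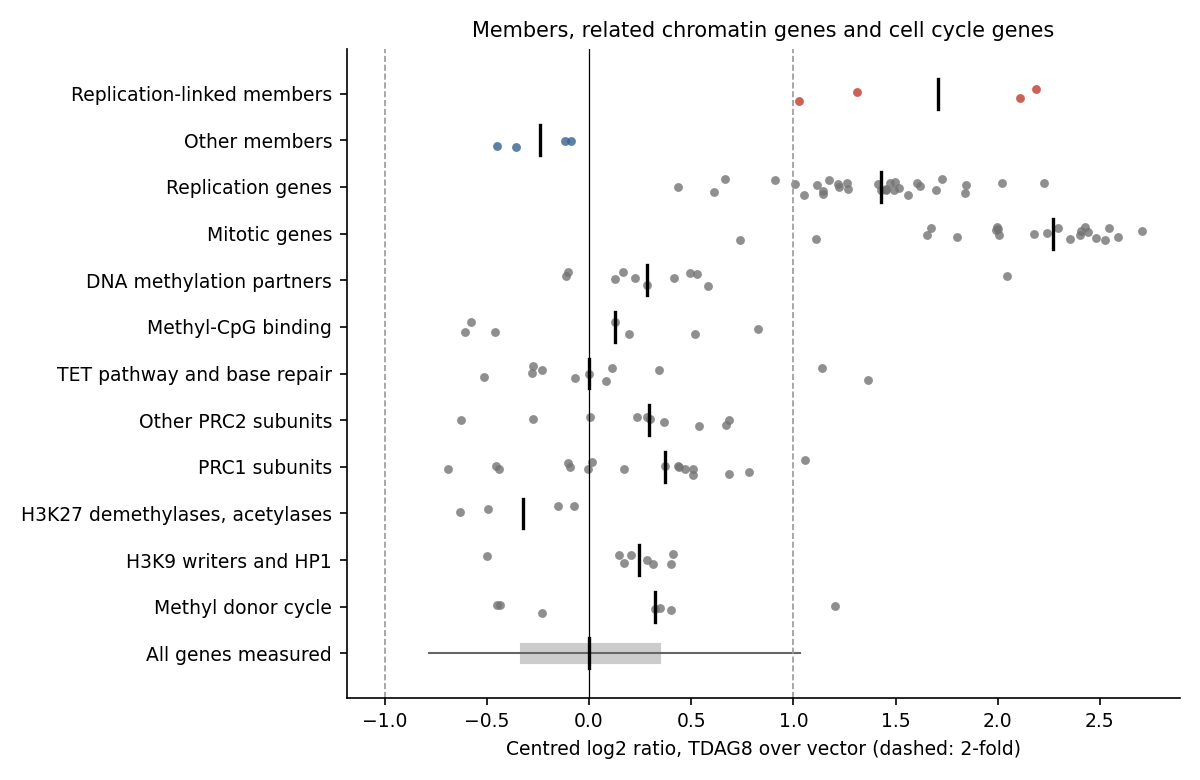
Centred log2 ratio of TDAG8 over vector for each measured gene (points, spread vertically only for legibility) with the list median (black bar); the bottom row gives the median, the 25th to 75th percentile (box) and the 5th to 95th percentile (line) of all 11951 genes. The replication-linked members (median 1.71) lie among the replication genes (median 1.43). The other members (median -0.24) and the medians of the 8 chromatin lists lie inside 2-fold, while 5 genes of these lists lie past it.

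Germline genes that are silenced by promoter methylation in body tissues were mostly not above the floor. Of 16 listed genes 15 lay below it on both arrays, among them the germ cell genes Dazl and Ddx4 at no more than 6.2, named after their values were seen. Over all 18193 genes, 11951 were above the floor on at least 1 array, and the others lay below both floors. The exception was Rhox5, an X-linked homeobox gene, which went from 276 to 1746, a ratio of 2.72.

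Marker genes of lung and immune cells differed between the pools as well. Marker medians were -0.69 for endothelium (10 of 10 below 0), -0.48 for alveolar type 2 (7 of 7), -0.51 for alveolar type 1 (7 of 7), -0.60 for club (6 of 6) and -0.78 for ciliated cells (8 of 8). Summed endothelial intensity went from 8177 to 4887 and summed type 2 intensity from 32455 to 24029. Monocyte and macrophage markers had a median of 0.96, with 8 of 10 above 0 and sums of 9205 and 9567. The brightest of these markers alone gave 6650 and 6002 of those sums. Fibroblast markers were at -0.32, neutrophil at 0.28, T and natural killer at 0.19, B cell at -0.39 and red cell precursor and progenitor markers at -0.34. None of the markers with a probe set was listed at 0. All lung epithelial and endothelial markers with a probe set were above the floor on both arrays, except 2 of the 8 ciliated ones. Those 2 were above it in the vector array alone, so their ratios are bounds. The labelled tissue has these cell types, and no marker used here separates LLC cells from host cells. In whole-lung RNA, more cells of a type and more RNA per cell cannot be told apart, and the part of these differences in the members' ratios was not tested. Gpr65 went from 32.3 to 73.9, a ratio of 1.25, at 1 probe set close to the floor. The labels give neither the species nor the extent of the transfected TDAG8 sequence, so whether this probe set reads it is unknown.

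**Figure D5:**
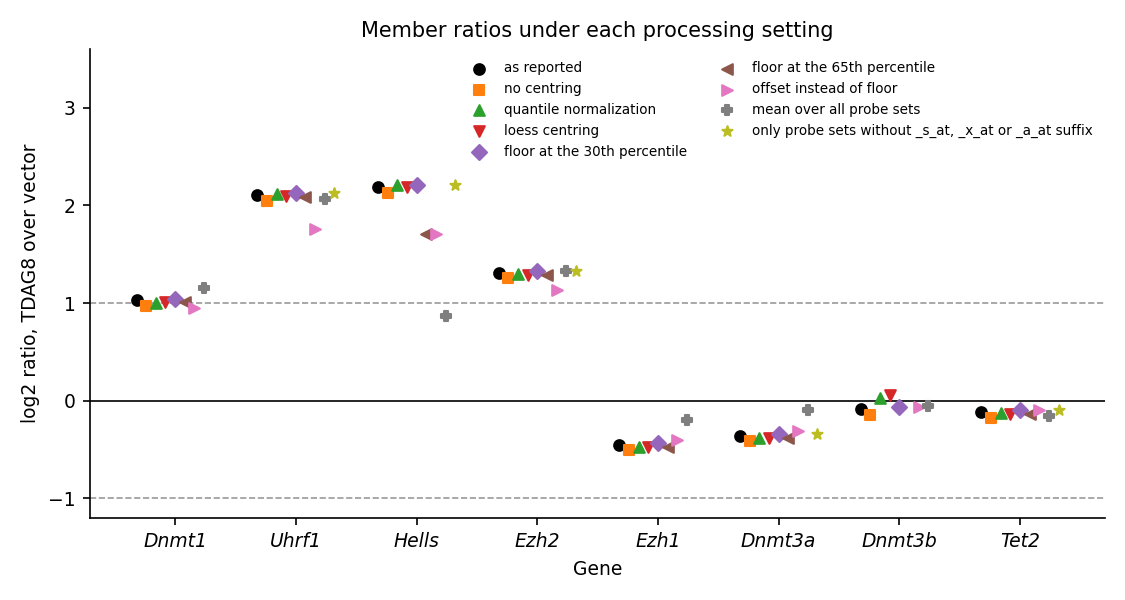
Log2 ratio of TDAG8 over vector for each measured member under the reported setting and 8 alternatives; dashed lines mark 2-fold. Dnmt1 lies between 0.95 and 1.16, Hells between 0.87 and 2.21, and Ezh1, Dnmt3a and Tet2 lie below 0 wherever they were measured.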

How the data were processed

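The intensity values deposited by the authors are linear, 1 per probe set, and with 2% trimmed at either end both columns average 100. For the image software the sources used here give no name, and detection calls were not used. Per the labels' protocols, 2 µg of pooled RNA was primed from the poly(A) tail, so probe sets read near the 3′ end. Probe sets with 1 gene symbol (34945) were named through the platform annotation and RefSeq's table of assembly GRCm38.p6, and 0 columns were left over. The probe set brightest on average stood for a gene, values under the 50th percentile of the array were raised to it, and log2 ratios were centred by a shift of -0.06. A ratio against a raised value is a bound, written as at least N-fold, and 2-fold was the limit for counts. Nothing was tested, as each group had 1 array, whose number limits the precision.

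The members and the 22 lists were chosen with earlier results of these data known. Named by rule were all members, Gpr65, and per list its brightest gene and the 3 with the largest ratios in either direction; marker lists are given as lists only. There were 8 alternatives, and 1 more was added after seeing the data. The procedure was tested on simulated data in which only genes well above the floor of the vector array were changed. It thus did not cover changed genes nearer the floor, where Uhrf1, Hells and Ezh2 lay in the vector array. Python 3.11.15, pandas 2.3.3 and statsmodels 0.14.6 (loess, span 0.3) were used. Promoter sequences are those of RefSeq, which held all 10 members.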

Additional observations from a re-analysis of the deposited data

How the results depend on the processing

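Of 532 recomputed values 501 stayed within the pooled SD of 0.27 between probe sets of a gene, or a count within 1.5 times, 31 moved further, and 0 turned sign from past 2-fold. Replication-linked members past 2-fold numbered 3 or 4 and other members 0 under every alternative. Dnmt1 was not measured without probe sets that carry the suffixes _s_at, _x_at or _a_at, nor were Dnmt3b and Ezh1, and Dnmt3b was not measured with the floor at the 65th percentile. With the offset, Uhrf1 was at 1.75, Hells at 1.70, the replication-linked median at 1.42, Uhrf1 over Uhrf2 at 1.57, the replication list at 1.06 with 16 genes past 2-fold, the mitosis list at 1.76, PRC1 at 0 genes past 2-fold, and 31 of all genes were lower. With the mean over probe sets, Hells was at 0.87, the replication-linked median at 1.24, the replication list at 0.98 with 15 genes past 2-fold, the mitosis list at 1.55, and 78 genes were lower. That mean counts probe sets below both floors at the floor, which draws ratios towards 0. Over probe sets above the floor only, an alternative chosen after seeing the data, Hells was at 1.312, the replication-linked median at 1.314, and 0 PRC1 genes passed 2-fold. Without suffixed probe sets the replication-linked median was 2.13 over 3 genes. With the floor at the 65th percentile, Hells was at 1.71, the replication list at 1.14, the mitosis list at 1.93, the methyl donor list at 0.028, the red cell and progenitor markers at -0.87, and 419 genes were higher and 68 lower. With the floor at the 30th percentile, 345 genes were lower, 2 partners of the methylation enzymes, 1 lysine 9 gene and 1 T or natural killer marker passed 2-fold. Without centring, 0 PRC1 genes passed. Causes were not tested, beyond the smaller or larger number of genes above each floor. Signal near the floor limits Dnmt3b, Tet1, Tet3 and the vector values of Uhrf1 and Hells.

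No paired analysis was possible because each group had 1 array.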
